A study of Mus musculus with 288 samples.

Results

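Superoxide dismutases, glutathione peroxidases and peroxiredoxins are the enzymes that remove superoxide and peroxides. The 10 genes described here were taken by name from the expression tables: the superoxide dismutases Sod1, Sod2 and Sod3, the glutathione peroxidases Gpx1, Gpx3 and Gpx4, and the peroxiredoxins Prdx1, Prdx3, Prdx5 and Prdx6. All 10 were among the 35904 genes listed. The list goes by gene name, and was drawn up with earlier results of these data known. The mice were male, wild-type C57BL/6J animals, 8 weeks old. One group stayed in normoxia and the other was exposed to intermittent hypoxia (IH), with oxygen cycling between 21% and 8% during the light phase for 7 days, and both groups then spent 2 days in constant darkness in normoxia. Lung, liver, kidney, muscle, heart and cerebellum were collected at 8 time points 3 hours apart, from 3 mice per time point and treatment, which gives 24 libraries for each tissue in each treatment. Values are transcript abundances in TPM, which are scaled for transcript length and to a common sum per library.

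Superoxide dismutases convert superoxide to hydrogen peroxide and oxygen. Hydrogen peroxide and lipid peroxides are then reduced by glutathione peroxidases, which draw on glutathione and in these members carry selenocysteine, and by peroxiredoxins, which use a reactive cysteine and are mostly recharged by thioredoxin. The members divide the work by place: Sod1 acts mainly in the cytosol, Sod2 in the mitochondrial matrix and Sod3 outside the cell, and the same split recurs among the peroxidases. Repeated hypoxia and reoxygenation is known as a source of reactive oxygen species, so the comparison of IH with normoxia addresses how the transcripts of these enzymes behave across organs after such an exposure.

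In GENCODE coordinates on GRCm38, Sod1 lies at chr16:90220754-90226329, Sod2 at chr17:13006846-13040063 and Sod3 at chr5:52363791-52371418, all on the plus strand. Gpx1 lies at chr9:108338903-108340343, Gpx3 at chr11:54902453-54910377 and Gpx4 at chr10:80047166-80056439, also on the plus strand. Prdx1 lies at chr4:116685544-116700822 on the plus strand, and Prdx3 (chr19:60864051-60874556), Prdx5 (chr19:6906697-6910106) and Prdx6 (chr1:161240112-161251219) lie on the minus strand.

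The depth of each library is not recorded in the TPM tables, so no counting error is given for single values. No library repeated the values of another (0 identical libraries). The labels do not say whether tissues of one number come from the same mouse, and p-values measure the spread between these libraries. By the median of the summed TPM, each organ's own marker list was highest in that organ. Single libraries departed from this. The lowest liver IH library held 944 TPM of hepatocyte markers, against a median of 3020 in normoxic cerebellum (up to 6058). The lowest cerebellum IH library held 351 TPM of cerebellar neuron markers, against up to 370 in IH kidney. Cardiomyocyte markers reached 5246 TPM in a liver and 6031 in a cerebellum IH library, against IH medians of 28.2 and 380 TPM in those tissues. In normoxic cerebellum their median was 645 TPM (up to 2662). A processed pseudogene, Gm19220, took more than 100000 TPM in 18 libraries, 9 of them from kidney, 7 from cerebellum and 1 each from liver and muscle, and this lowers the TPM of every other gene there. The number of genes with a value above 0 was higher after IH in the lung (25455 ± 1529 against 22694 ± 737; SD, n = 24) and lower after IH in the heart (21447 ± 689 against 25124 ± 1719). The part of this shift in the results for those tissues was not tested beyond the fit with the number of detected genes as a term, given beside them.

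Upstream sequence was available from RefSeq (GRCm38.p6) for 8 of the 10 genes, with 11 windows in all because Gpx4 has several starts. Sod3 and Prdx6 are named only. Each window was searched on both strands, over the 250 bases before the RefSeq start. The search was for cores of elements that oxidative or hypoxic signaling is known to use. RefSeq and GENCODE starts differ. The windows of Gpx3 (from chr11:54902604), Sod2 (from chr17:13007589) and the later Gpx4 starts (from chr10:80053315) lie inside the GENCODE genes given above. Those of Prdx1, Sod1, Gpx1 and Prdx3 reach partly into them. The antioxidant response element core TGACNNNGC, the site of the oxidative stress factor Nrf2, was present in 2 of the 11 windows, those of Prdx1 and Sod1, and in 10.2% of all 32851 windows. The hypoxia response element core ACGTG was present in 1 of 11, that of Gpx1, and in 16.6% of all windows. These stretches are shown because they are the only member windows that hold either core, and capitals mark the match.
Prdx1: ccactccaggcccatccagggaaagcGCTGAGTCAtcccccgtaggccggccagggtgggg
Sod1: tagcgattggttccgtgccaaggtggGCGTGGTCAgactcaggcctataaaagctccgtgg
Gpx1: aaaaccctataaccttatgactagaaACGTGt
The Prdx1 stretch lies at chr4:116685440-116685500 and the Sod1 stretch at chr16:90220680-90220740, both on the plus strand, and both hold the core on the strand opposite to the gene, so that the capitals read as its reverse complement. The Gpx1 stretch lies at chr9:108338871-108338902 on the plus strand. Counted from the RefSeq start, the matches span positions -133 to -125 for Prdx1, -56 to -48 for Sod1 and -183 to -179 for Gpx1. The windows end just before that start, at chr4:116685598, chr16:90220761 and chr9:108339079, inside the GENCODE genes. The matches themselves lie upstream of the GENCODE genes. The GC box GGGCGG was found in 9 of the 11 windows, representing 7 genes, and in 32.7% of all windows. All member windows but that of Gpx1 (42% GC) lay above the median GC content of all windows, 52.4%, and reached 66.4%. The shares were not matched for GC content. The CCAAT box was found in 6 of 11, those of Gpx3, Sod1 and Sod2 and several of Gpx4, and in 33.9% of all. Some Gpx4 windows overlap, so the same site can count more than once for both boxes. The E-box CACGTG, which clock factors bind, was found in 0 of 11 and in 6.02% of all windows. A match is a match of letters only, and was not tested for use in these tissues.

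In normoxia the members had clearly different organ profiles, and kidney held the highest median of 7 of the 10 genes. Sod1 was highest in liver and lowest in heart, with a 4.35-fold ratio between the mean TPM of those tissues. Its median was 2082 TPM in liver (1695 to 2614 over the 24 libraries), 1588 in kidney (1073 to 1923), 1002 in lung (879 to 1106), 809 in cerebellum (510 to 1142), 520 in muscle (287.8 to 758) and 483 in heart (385 to 622). Liver and heart thus did not overlap, while muscle and heart, adjacent in this order, did not differ beyond their spread (log2 difference 0.10 ± 0.06 SE, limma adjusted p = 0.121). Sod2 was highest in kidney (median 427 TPM, 295 to 518) and heart (335, 243 to 438), and lowest in cerebellum (110, 78.6 to 128) and lung (106, 91.4 to 131). Lung and cerebellum were not distinguished (adjusted p = 0.882), and muscle and liver were not either (225 and 218 TPM, adjusted p = 0.157). Sod3, the secreted form, spanned 22.0-fold, from kidney (98.3 TPM, 61.9 to 150.04) and lung (97.6, 43.5 to 120) down to cerebellum (4.71, 3.58 to 9.13). The kidney and lung ranges of Sod3 overlapped, and their difference was small (log2 0.21 ± 0.09, adjusted p = 0.0308).

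**Figure D1:**
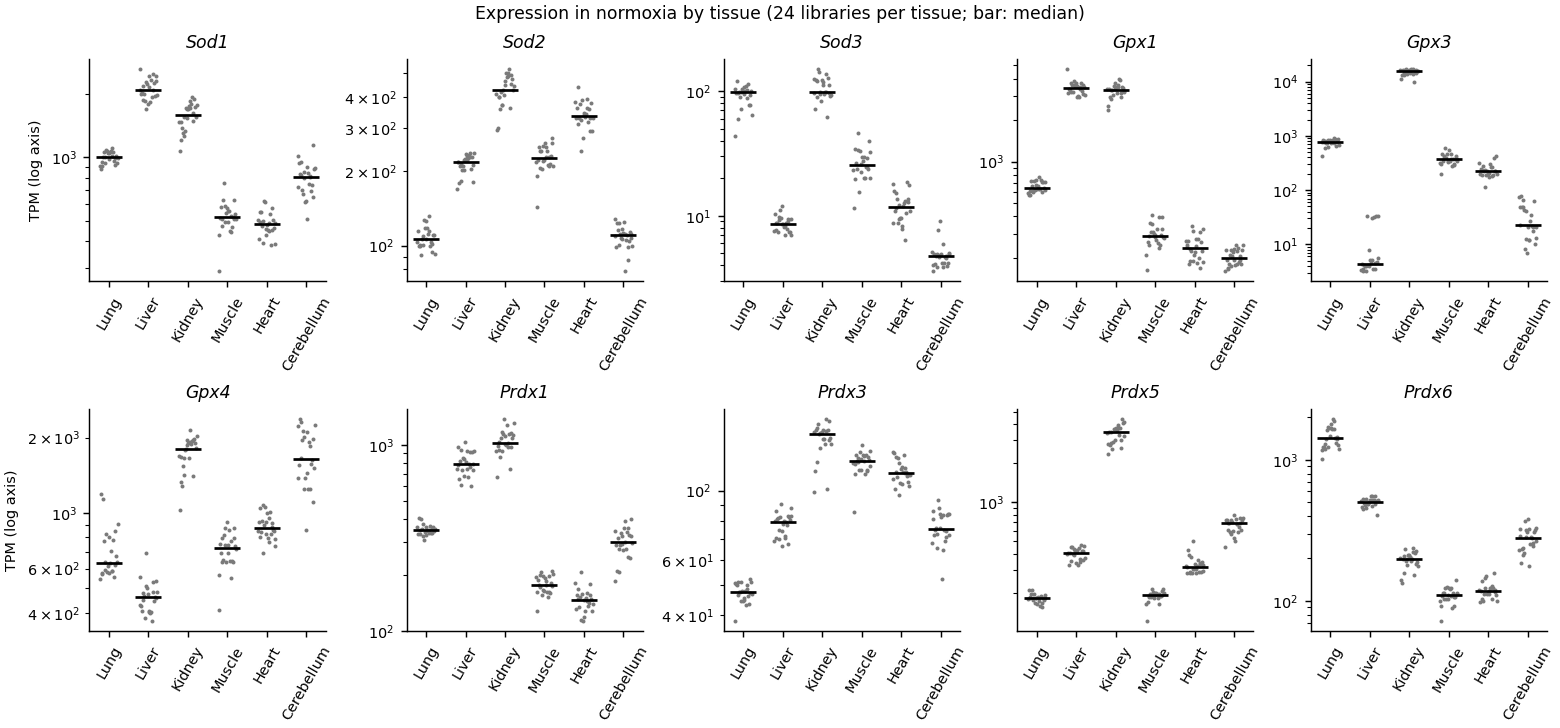
TPM of the 10 genes (vertical log axes) in each of the 24 normoxia libraries of 6 tissues (horizontal axis), with the median as a bar. Gpx3 in kidney, at a median of 15511 TPM, stands far above every other tissue, and 5 liver libraries of Gpx3 sit apart from the other 19.

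Gpx1, the abundant cytosolic glutathione peroxidase, reached a median of 3421 TPM in liver (2936 to 4691) and 3328 in kidney (2367 to 3966), which were not distinguished (adjusted p = 0.325). Lung followed at 640 TPM (571 to 773), and muscle, heart and cerebellum lay between medians of 200.2 and 290.1 TPM. Gpx3, the extracellular form that kidney tubules are known to supply to plasma, had the widest span of all members, 1458-fold between the mean of kidney and that of liver. Its kidney libraries held 9975 to 16908 TPM (median 15511) and made up 55.8% of the summed TPM of the 10 genes in kidney. The next tissue was lung at a median of 783 TPM (428 to 923), then muscle at 372 and heart at 223, then cerebellum at 22.4 (6.89 to 79.5) and liver at 4.42 (3.18 to 33.9). Gpx4, which reduces lipid peroxides within membranes, had one of the narrower spans (3.73-fold). Kidney (1807 TPM, 1029 to 2138) and cerebellum (1648, 857 to 2380) were not distinguished at the top (adjusted p = 0.580), and in cerebellum, muscle and heart Gpx4 was the most abundant of the 10. In cerebellum it contributed 41.0% of their sum.

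Among the peroxiredoxins, Prdx1, a cytosolic enzyme, was highest in kidney (median 1027 TPM, 675 to 1379) and liver (787, 603 to 1033) and lowest in heart (147, 113 to 207). All 5 steps of its order passed the test. The mitochondrial Prdx3 varied least, 3.08-fold, from kidney (152 TPM, 98.8 to 169.9) to lung (47.4, 38.2 to 52.2), and was at 125 TPM in muscle and 114 in heart (adjusted p = 0.0541). Prdx5, found in mitochondria, peroxisomes and cytosol, reached 3457 TPM in kidney (2373 to 4402), against 684 in cerebellum (452 to 801), the next tissue, and its lowest levels were 191 TPM in muscle and 182 in lung (adjusted p = 0.409). Prdx6, which acts on phospholipids as well as peroxides and is known from lung surfactant turnover, was the one member highest in lung: its 24 lung libraries held 1023 to 1958 TPM (median 1422), all above the highest liver library (557). Heart and muscle were its lowest tissues, at 118 and 110 TPM (adjusted p = 0.0592).

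Of the 50 steps between neighboring tissues, 40 had an adjusted p at or below 0.05, against 62.9% of such steps over all genes tested. TPM is a share of the RNA in each tissue, so an order between tissues depends on what else is expressed. With median-of-ratios scaling over all 6 tissues, 33 steps passed, Prdx1 became highest in liver and Sod2 and Prdx3 became highest in heart, while the tissues at the top for the other 7 genes stayed as given. With TPM rescaled without Gm19220, 44 steps passed and Gpx1 became highest in kidney. Sequences nearly identical to members could share reads with them: the listed copies Gpx4-ps1, Gpx4-ps2, Prdx1-ps, Prdx6-ps2 and Prdx6b together never passed 8.39 TPM singly in any library, and the largest of them in sum, Gpx4-ps2, amounted to 0.251% of Gpx4.

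The genes most like each member over the 24 normoxia libraries of each of the 6 tissues were found by Pearson correlation of log2(TPM + 0.5) among the 11047 genes whose mean reached 5 TPM. These points share tissues, and a correlation here mostly restates a tissue order, so the values are descriptive. Sod2 lay closest to Acadm (r = 0.969), Etfb (0.951) and Etfa (0.936), which encode enzymes of mitochondrial fatty acid oxidation and its electron transfer. Prdx3 lay closest to Cyc1 (0.959), Uqcrc2 (0.955) and Sdhc (0.948), subunits of the respiratory chain. Its nearest fellow member was Sod2, with r = 0.849. Gpx1 lay closest to Ttc36 (0.986), Cyb5a (0.980) and Hpn (0.980), Prdx1 to Bphl (0.975), Aass (0.972) and Pcbd1 (0.969), and Sod1 to Ropn1l (0.960), Cyp2j6 (0.958) and Aldh3a2 (0.953). Sod3 lay closest to Sh3tc1 (0.962), Igfbp7 (0.951) and Kif16b (0.949), and Gpx3 to Dab2 (0.959), Bicc1 (0.958) and Chst7 (0.956). For Prdx5 the genes were Ppa2 (0.962), Kcnj16 (0.953) and Spsb4 (0.952), for Gpx4 Morn2 (0.911), Coprs (0.910) and Atpif1 (0.906), and for Prdx6 Gsap (0.928), Foxa1 (0.926) and Elovl5 (0.924). Prdx6 was the member least like the others, with a highest correlation of 0.524, to Sod1.

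Mean 24-hour expression was compared between IH and normoxia in each tissue, on log2(scaled TPM + 0.5), where scaled TPM is TPM divided by the library's median ratio to the other libraries of that tissue. A change was called at a limma adjusted p at or below 0.05, by the Benjamini-Hochberg method over every gene fitted in that tissue. All 10 members were called lower after IH in the lung. In the other tissues 8 calls were made: Gpx3 higher in the liver, Prdx1 lower in the kidney, Sod3, Gpx3 and Prdx1 higher and Gpx1 and Gpx4 lower in the heart, and Gpx4 lower in the cerebellum. In the muscle 0 of 10 were called. Over all genes the lung had calls for 70.4%, the heart for 45.2%, the liver for 24.2%, the kidney for 19.8%, the cerebellum for 15.0% and the muscle for 10.4%. These log2 changes understate the change of genes with low TPM.

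**Figure D2:**
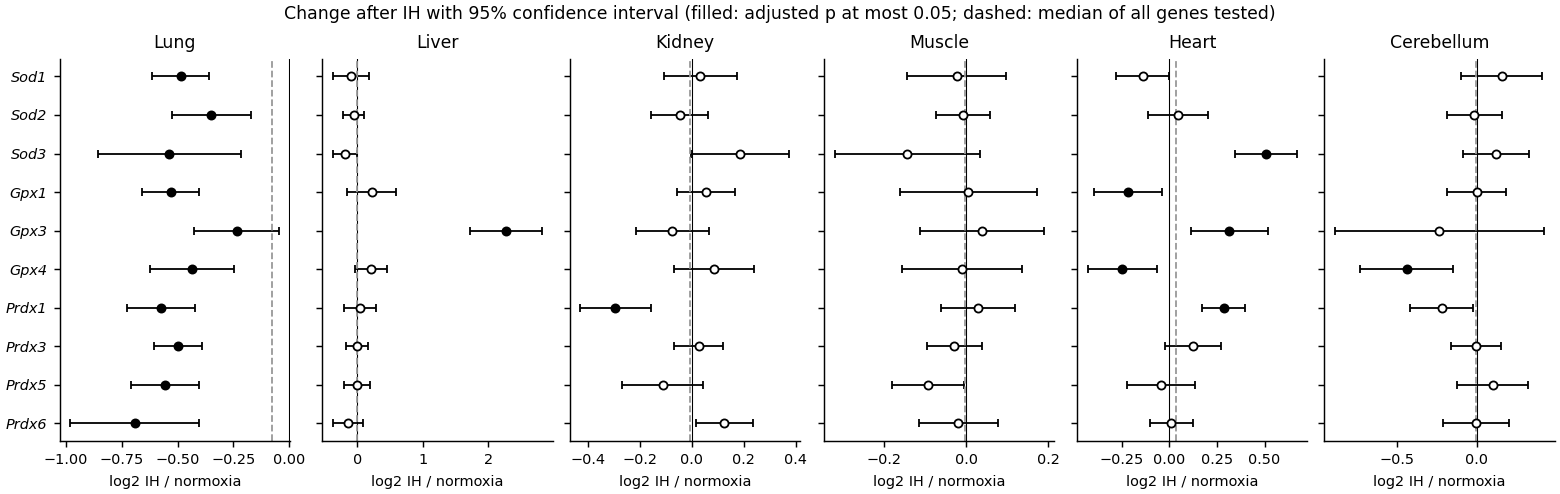
Log2 ratio of IH to normoxia for each of the 10 genes (horizontal axis, own scale in each of the 6 tissue panels) with its 95% confidence interval, 24 libraries per treatment. Filled points have an adjusted p at or below 0.05, and all 10 lung points are filled and lie below the dashed median of all genes tested, while the liver panel holds a single filled point, Gpx3.

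In the lung the 10 changes had a median of -0.51 on the log2 scale, against -0.08 over all 15426 genes. Of those genes, 41.5% were called lower. Among the 11698 genes averaging 5 TPM or more, the median was -0.13, with 5658 called lower and 2836 higher. Without a filter on low values it was 0.03 over 34148 genes. The background thus shifted with abundance, and the members were not compared with genes matched for it. With TPM as deposited, which uses a common sum in place of the median ratio, the median over all genes moved to 0.21, the members' median to -0.21, and 6 of the 10 were called lower, against 10.7% of all genes. All 10 members lay below the median gene under both scalings. With the median ratio, all 10 were also lower at 8 of 8 time points. Over all genes, the calls were 4464 higher and 6400 lower with the median ratio, and 8478 higher and 1655 lower with TPM as deposited, so the direction of a small change in the lung depends on the scaling. Within each replicate number, 8 libraries against 8, the members called lower were 8, 9 and 6 for numbers 1, 2 and 3. The same comparisons called 6165 of 15476, 4665 of 15683 and 4907 of 15033 of all genes lower.

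Lung Sod1 ranged from 906 to 1219 scaled TPM in normoxia (median 1118) and from 388 to 984 after IH (median 807). All 24 IH libraries lay below the normoxia median and 19 below every normoxia library. The change was -0.49 ± 0.06 (log2, SE), with an adjusted p of 6.02e-09. With TPM as deposited Sod1 was still called lower, by a log2 change of -0.18 (adjusted p = 0.00182). Sod2, the mitochondrial form, ranged from 100.1 to 155 scaled TPM in normoxia (median 114) and from 37.9 to 129 after IH (median 96.9), and the groups overlapped more, with 8 IH libraries above the normoxia median. Its change was -0.35 ± 0.09 (adjusted p = 5.79e-04), and it was -0.05 with TPM as deposited, which was not called (adjusted p = 0.623). Sod3 ranged from 59.2 to 121 scaled TPM in normoxia (median 103) and from 18.6 to 127 after IH (median 77.1). Its IH values spread beyond the normoxia range at both ends, with 9 libraries below all normoxia libraries and 4 above them. The change of -0.54 ± 0.16 (adjusted p = 0.00279) was not the same in every replicate number: it was -1.01 in number 1, -0.86 in number 2 and 0.22 in number 3, where it was called higher (adjusted p = 0.0453). Without number 1 the Sod3 change was -0.31 and was not called (adjusted p = 0.213), and without number 3 it was -0.92. With TPM as deposited the Sod3 change was -0.24 and was not called (adjusted p = 0.183). Sod2 was at -0.45 in number 1, at -0.61 in number 2 and at -0.01 in number 3, where it was not called (adjusted p = 0.877). Without number 2 the Sod2 change was -0.23 and was still called (adjusted p = 0.0148).

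**Figure D3:**
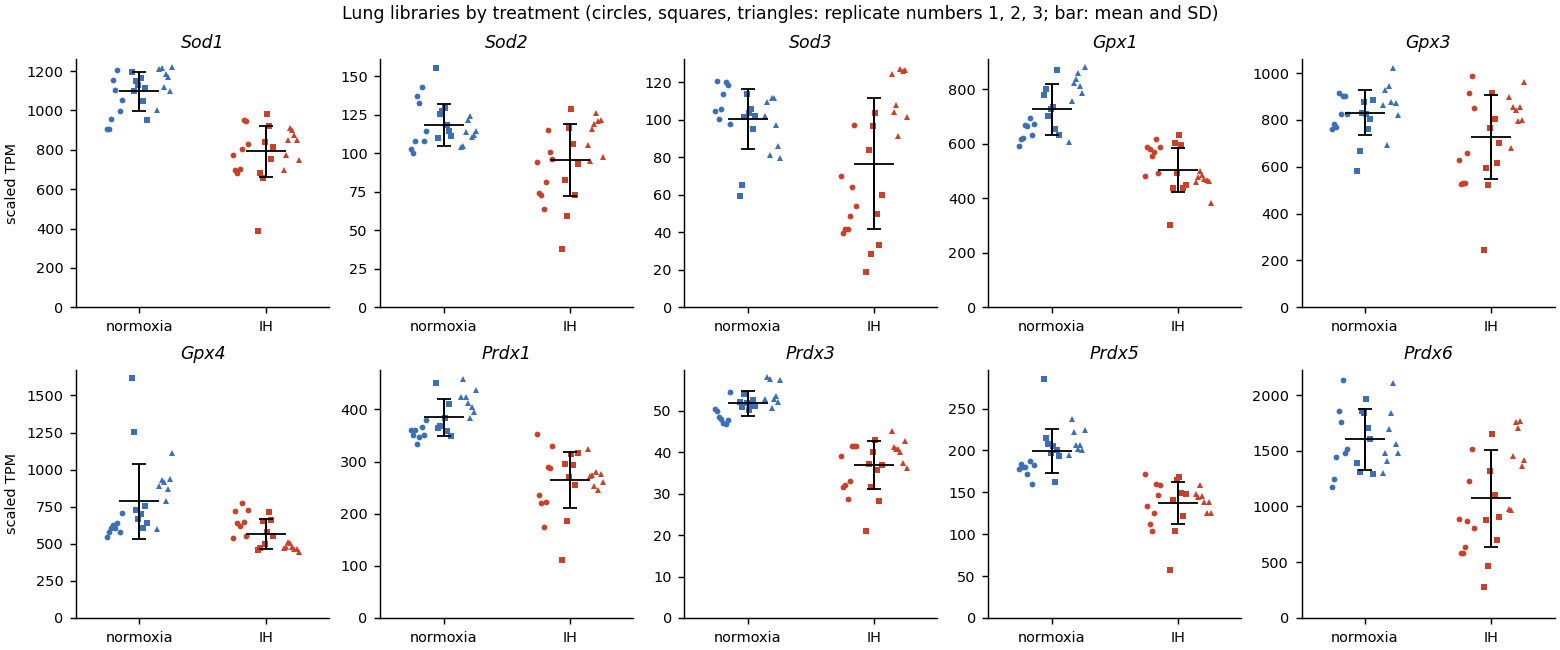
Scaled TPM of the 10 genes (vertical axes from 0) in the 24 normoxia and 24 IH lung libraries (horizontal axis), with the mean and SD as a bar and the replicate number as the point shape. For Prdx3 the 2 groups do not overlap, while for Sod3 the IH libraries of replicate number 3 lie from 91.2 to 127 and those of number 1 from 39.8 to 97.2.

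Among the glutathione peroxidases of the lung, Gpx1 ranged from 590 to 881 scaled TPM in normoxia (median 715) and from 302 to 631 after IH (median 488). Here 20 of 24 IH libraries lay below every normoxia library, and the change was -0.53 ± 0.06 (adjusted p = 5.82e-10). Gpx4 ranged from 545 to 1615 scaled TPM in normoxia (median 703) and from 448 to 774 after IH (median 546), a change of -0.44 ± 0.09 (adjusted p = 7.43e-05). With TPM as deposited the Gpx4 change was -0.13 and was not called (adjusted p = 0.162). Gpx4 also differed by replicate number, with 0.08 in number 1, -0.56 in number 2 and -0.87 in number 3. Without number 3 the Gpx4 change was -0.22 and was not called (adjusted p = 0.0871), and without number 1 it was -0.70. Gpx3 had the smallest change of the 10: it ranged from 583 to 1021 scaled TPM in normoxia (median 829) and from 247 to 986 after IH (median 779), a change of -0.23 ± 0.09 (adjusted p = 0.0257). With TPM as deposited the change of Gpx3 was 0.07 (adjusted p = 0.511), so its sign in the lung was not fixed across scalings. Gpx3 was also not called without number 1 (adjusted p = 0.148), without number 2 (adjusted p = 0.0669) or with a correction for length and GC content (adjusted p = 0.0710). Nor was it called within any single number, at -0.30, -0.37 and -0.07 in numbers 1, 2 and 3.

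All 4 peroxiredoxins were called lower in the lung, and in scaled TPM 14 to 24 of the IH libraries lay below every normoxia library. Prdx3 ranged from 46.8 to 58.1 scaled TPM in normoxia (median 51.7) and from 21.0 to 45.1 after IH (median 38.2), so that the groups did not overlap. In TPM as deposited the Prdx3 groups did overlap, at 38.2 to 52.2 in normoxia and 28.8 to 50.6 after IH. Its change was -0.50 ± 0.05 (adjusted p = 4.46e-11), and it was called lower within each replicate number. Prdx1 ranged from 333 to 459 scaled TPM in normoxia (median 374) and from 112 to 352 after IH (median 273), with 23 of 24 IH libraries below every normoxia library. Its change was -0.57 ± 0.08 (adjusted p = 7.19e-09). Prdx5 ranged from 160 to 285 scaled TPM in normoxia (median 199) and from 57.3 to 172 after IH (median 142), a change of -0.56 ± 0.08 (adjusted p = 1.21e-08). Prdx6, the most abundant member of the lung, had the largest change: it ranged from 1175 to 2135 scaled TPM in normoxia (median 1541) and from 275 to 1766 after IH (median 973). The change was -0.69 ± 0.14 (adjusted p = 4.01e-05), past 1.5-fold. Of all genes tested in the lung, 4.39% were called lower and past 1.5-fold. The Prdx6 groups overlapped, with 14 IH libraries below all of normoxia and 4 above its median, and within replicate number 3 the change was -0.19 and was not called.

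One lung library, IH replicate 2 at 1:30 h, was the lowest of its group for 9 of the 10 members. Without it 10 members were still called lower, with changes from -0.61 for Prdx6 to -0.17 for Gpx3. Markers of alveolar and club cells moved with the members in the lung: 6 of 6 were called lower, and their summed TPM had a median of 170762 in normoxia (136152 to 264332) and 147515 after IH (34681 to 205328). In scaled TPM the sum after IH had a median of 74442 in replicate number 1, 95355 in number 2 and 158940 in number 3. Sod2, Sod3, Gpx3, Prdx3 and Prdx6 had their highest changes in number 3. Gpx1 (-0.22, -0.63 and -0.77 in numbers 1, 2 and 3) and Gpx4 had their lowest there. Sod1, Prdx1 and Prdx5 had their lowest in number 2. Red cell markers were called lower for 6 of 6 and endothelial markers for 5 of 6. Other lists went the other way: cardiomyocyte markers were called higher for 4 of 6 and skeletal muscle markers for 1 of 5. The summed cardiomyocyte markers had a median of 333 TPM in normoxia (188 to 785) and 633 after IH (314 to 916). Their part in the result was not tested, and in bulk tissue fewer cells of a type and less RNA per cell cannot be told apart. With the number of detected genes as a term, 6 members were called lower (Sod1, Gpx1, Gpx4, Prdx1, Prdx3 and Prdx5). Sod3 and Gpx3 were called higher, by 0.68 and 0.32, and Sod2 and Prdx6 had positive, uncalled values of 0.13 and 0.21. Of all 15426 genes, that term gave 3869 called lower and 4234 called higher.

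In the liver a single member, Gpx3, was called, and higher after IH. Gpx3 held 3.18 to 33.9 TPM in normoxia (median 4.42) and 18.1 to 233 TPM after IH (median 29.2). All 24 IH libraries lay above the normoxia median, but the groups overlapped through 5 normoxia libraries at 30.8 to 33.9 TPM, all of replicate number 3, while the other 19 held 3.18 to 8.01 TPM. On scaled TPM the change was 2.27 ± 0.27 (log2, SE) (adjusted p = 9.47e-08), a 4.84-fold difference, where 1.1% of genes in the liver were called higher and past 1.5-fold. Within replicate numbers 1 and 2 it was 2.83 and 3.09 and was called, and within number 3 it was 0.86 and was not (adjusted p = 0.647). Of all liver genes, 3035 of 11057, 1959 of 11328 and 1 of 11468 were called within numbers 1, 2 and 3.

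Transcripts of kidney tubules moved with liver Gpx3 library by library. The summed TPM of 6 kidney tubule markers (Kap, Umod, Slc34a1, Slc12a1, Fxyd2 and Aqp2) was 108 to 121 in the 5 normoxia libraries with high Gpx3 and 0.834 to 11.9 in the other 19. After IH it was 41.5 to 447, and the library with 447, replicate 2 at 13:30 h, was also the one with 233 TPM of Gpx3. All 4 markers with enough signal to be tested in the liver were called higher. Cardiomyocyte markers were also called higher there, 5 of 5, with a summed median of 10.6 TPM in normoxia (4.03 to 46.0) and 28.2 after IH (19.3 to 5246), and their part in the result was not tested. The markers were chosen with earlier results of these livers known. The rise of the Gpx3 median, set against the kidney's own median, came to 0.160%, and the rises of the 6 markers on the same scale came to 0.141% to 0.187%. By means in place of medians, Gpx3 came to 0.180% and the markers to 0.130% to 0.179%. Gpx3 thus lay inside their range by medians and just above it by means. The IH means include the library with 233 TPM of Gpx3, where the IH median of Gpx3 was 29.2 TPM and its mean 37.2. Which cells the Gpx3 transcripts of the liver came from was not tested.

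**Figure D4:**
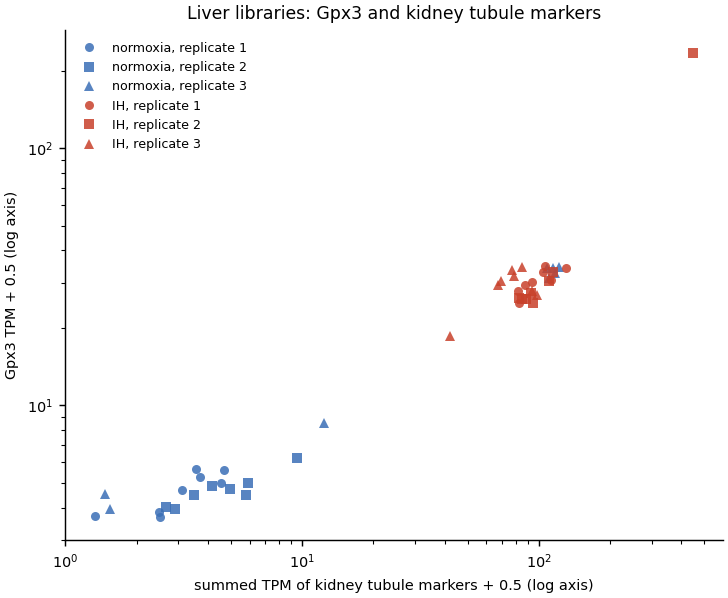
Gpx3 TPM (vertical log axis) against the summed TPM of 6 kidney tubule markers (horizontal log axis), both with 0.5 added, in the 24 normoxia and 24 IH liver libraries. The 5 high normoxia libraries, all triangles for replicate number 3, lie among the IH libraries, and the IH library at 233 TPM of Gpx3 is also highest in the markers.

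The other 9 members were not called in the liver. Their changes ran from -0.19 for Sod3 (95% confidence interval -0.37 to 0.00) to 0.22 for Gpx1 (-0.15 to 0.60). Leaving out the IH library of replicate 2 at 13:30 h, in which Gm19220 reached 632361 TPM, brought the number called to 3: Sod3 was lower by a log2 change of -0.24 (adjusted p = 0.0159) and Gpx1 higher by 0.35 (adjusted p = 0.0424), beside Gpx3 at 2.11.

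In the kidney Prdx1 was the one member called. It ranged from 667 to 1396 scaled TPM in normoxia (median 998) and from 627 to 1068 after IH (median 822). The groups overlapped widely, with 22 of 24 IH libraries below the normoxia median and 1 below all of normoxia. The change was -0.29 ± 0.07 (adjusted p = 0.00154), lower at 8 of 8 time points. It rested mostly on replicate number 3, within which it was -0.62, against -0.04 in number 1 and -0.23 in number 2, and without number 3 it was -0.13 and was not called (adjusted p = 0.253). The remaining 9 changes lay between -0.11 for Prdx5 and 0.19 for Sod3. Red cell markers were called higher in the kidney for 5 of 6, and their part in the result was not tested.

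In the muscle all 10 confidence intervals lay between -0.32 and 0.19 on the log2 scale, the lower bound from Sod3 and the upper from Gpx3. The interval of Sod2 was the narrowest, from -0.07 to 0.06.

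In the heart the members moved in both directions. Sod3 ranged from 7.72 to 19.7 scaled TPM in normoxia (median 11.8) and from 13.6 to 23.1 after IH (median 17.3), and all 24 IH libraries lay above the normoxia median. The change was 0.51 ± 0.08 (adjusted p = 2.69e-06), higher at 8 of 8 time points. Prdx1 ranged from 126 to 197 scaled TPM in normoxia (median 149.9) and from 148 to 248 after IH (median 185), with 23 of 24 IH libraries above the normoxia median. Its change was 0.29 ± 0.06 (adjusted p = 5.79e-05). Within single replicate numbers Prdx1 was called in number 2 (0.50) and not in number 1 (0.10, adjusted p = 0.414) or number 3 (0.30, adjusted p = 0.0938). Of all heart genes, 4799 of 12630, 1382 of 12635 and 655 of 12959 were called within numbers 1, 2 and 3. Without number 2 the Prdx1 change was 0.19 (adjusted p = 0.0392). Gpx3 rose by 0.32 ± 0.10 (adjusted p = 0.0101), from a median of 251 to 295 scaled TPM, and was not called without number 1 (adjusted p = 0.0719) or number 3 (adjusted p = 0.0734). Members higher after IH were called in 3 of 10 cases, where 28.0% of genes were.

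The 2 heart members called lower were both glutathione peroxidases, where 17.3% of genes were called lower. Gpx1 ranged from 151 to 371 scaled TPM in normoxia (median 252) and from 140.2 to 278 after IH (median 215), a change of -0.22 ± 0.09 (adjusted p = 0.0439). Gpx4 ranged from 570.2 to 1397 scaled TPM in normoxia (median 928) and from 608 to 1074 after IH (median 757), a change of -0.25 ± 0.09 (adjusted p = 0.0228). In both, the groups overlapped almost fully, and the spread was larger in normoxia. Gpx1 was not called without any one of the 3 replicate numbers (adjusted p from 0.0528 to 0.173), and Gpx4 was not called without number 1 (-0.12, adjusted p = 0.420). With TPM as deposited 6 members were called higher and 1, Gpx4, lower. With the number of detected genes as a term only Prdx1 was still called (0.39, adjusted p = 0.0311), and Gpx4 changed sign, at 0.03. That term left 257 of all 12779 heart genes called. Endothelial markers moved with the heart libraries: 4 of 6 were called higher and 1 lower, and their summed TPM had a median of 374 in normoxia (203 to 624) and 445 after IH (316 to 544). Their part in the result was not tested.

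In the cerebellum Gpx4 was called lower. It ranged from 644 to 2896 scaled TPM in normoxia (median 1742) and from 396 to 2248 after IH (median 1314), with 22 of 24 IH libraries below the normoxia median. The change was -0.44 ± 0.15 (adjusted p = 0.0336). It was not called without replicate number 1 (-0.34, adjusted p = 0.326) or number 2 (-0.36, adjusted p = 0.509), nor without the 7 libraries rich in Gm19220 (-0.40, adjusted p = 0.0634). Of all cerebellum genes, those fits called 175 of 14592, 48 of 14959 and 3330 of 14870. The other members were not called, and their estimates ran from -0.23 for Gpx3, with an interval of -0.89 to 0.42, to 0.15 for Sod1.

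An interaction of treatment and tissue was fitted over the libraries of all 6 tissues, which the labels do not tie to individual animals across tissues. All 10 members had an adjusted p at or below 0.05, as did 88.3% of the 9876 genes tested. Values ran from 4.44e-19 for Gpx3 and 3.24e-11 for Prdx1 to 0.00321 for Sod2, the highest of the 10. Prdx1 showed the contrast most plainly, since it was called lower in the lung and the kidney and higher in the heart. Sod3 was at -0.54 in the lung, though at 0.22 there within replicate number 3 and at 0.68 with the detected-gene term, and at 0.51 in the heart.

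The remaining genes of the system were read from a list of 52 genes with other family members, thioredoxin and glutathione enzymes, genes of selenium supply and sources of superoxide. In the lung 28 of 47 tested were called lower and 5 higher, in the heart 7 lower and 10 higher of 44, in the liver 6 lower and 5 higher of 44, in the kidney 3 lower and 4 higher of 43, in the cerebellum 4 lower and 4 higher of 46, and in the muscle 2 lower and 2 higher of 44. Of all genes tested, 41.5% were called lower in the lung, and for heart 17.3% were called lower and 28.0% higher. Calls in either direction covered 24.2% of all genes for liver, 19.8% for kidney, 15.0% for cerebellum and 10.4% for muscle. Thioredoxin and glutathione enzymes made up 16 of the 28 falls in the lung, out of 20 tested. Catalase (Cat), which breaks down hydrogen peroxide in peroxisomes, was lower in both lung (-0.80 ± 0.13, adjusted p = 9.29e-07) and liver (-0.61 ± 0.18, adjusted p = 0.00993). Its mean fell from 204 ± 17.6 to 157 ± 61.6 TPM in the lung (SD, n = 24). Gpx2, an epithelial glutathione peroxidase, was lower in the lung by a log2 change of -0.77 ± 0.13 (adjusted p = 2.5e-06). In the liver Aox1, an aldehyde oxidase that can produce superoxide, was lower (-0.64 ± 0.13, adjusted p = 2.03e-04). Hepatocyte markers moved with these in the liver, with 3 of 6 called lower and a median change of -0.67 on the log2 scale. Red cell markers were called higher there for 4 of 5 and lower for 1, and macrophage and neutrophil markers higher for 4 of 6. Their part in the result was not tested. In the cerebellum Ccs, the copper chaperone that loads Sod1, was higher (0.83 ± 0.12, adjusted p = 4.13e-06), from 26.4 ± 8.80 to 46.1 ± 9.56 TPM, while Sod1 itself was at 0.15 and not called. Glrx5, a mitochondrial glutaredoxin of iron-sulfur cluster assembly, was also higher there (0.72 ± 0.16, adjusted p = 0.00111).

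Rhythm over the 24 hours was tested by a cosine fit with a period of 24 hours, on TPM, in each tissue and treatment. In normoxia 4 rhythms were called at an adjusted p at or below 0.05, Prdx6 in the lung and Sod1, Sod2 and Gpx1 in the kidney. After IH there was 1, Sod1 in the lung. Over all genes tested, lung rhythms were called for 2.99% in normoxia and 4.46% after IH, liver rhythms for 8.56% and 2.86%, and kidney rhythms for 8.49% and 1.19%. The corresponding shares were 0.87% and 2.28% for muscle, 0.285% and 1.21% for heart, and 0.0% and 0.00468% for cerebellum.

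Prdx6 in the normoxic lung was lowest at 1:30 h, at 1147 ± 112 TPM (SD, n = 3), and highest at 16:30 h, at 1837 ± 163 TPM. The ranges of the 3 mice at these times, 1023 to 1239 and 1652 to 1958 TPM, did not overlap. The fit gave an amplitude of 304 TPM, 20.8% of its MESOR (the mean level of the fitted curve), with the acrophase, the time of the peak, at 13.98 h and an adjusted p of 1.95e-04. After IH the amplitude was 346 TPM, 29.0% of a lower MESOR, and the acrophase was at 15.8 h, but the spread between mice was far larger, with an SD of 588 TPM where the mean was 931 TPM at 7:30 h, and the rhythm was not called (adjusted p = 0.201). Sod1 in the lung after IH rose from 732 ± 179 TPM at 1:30 h to 1017 ± 41.4 TPM at 16:30 h. Its amplitude was 118 TPM, 13.2% of MESOR, with an adjusted p of 0.0258. The 1:30 h mean includes the library of replicate 2 named above, at 533 TPM the lowest of the 24. The rhythm was not fitted without that library alone. In normoxia Sod1 in the lung had an amplitude of 58.3 TPM (adjusted p = 0.0597).

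**Figure D5:**
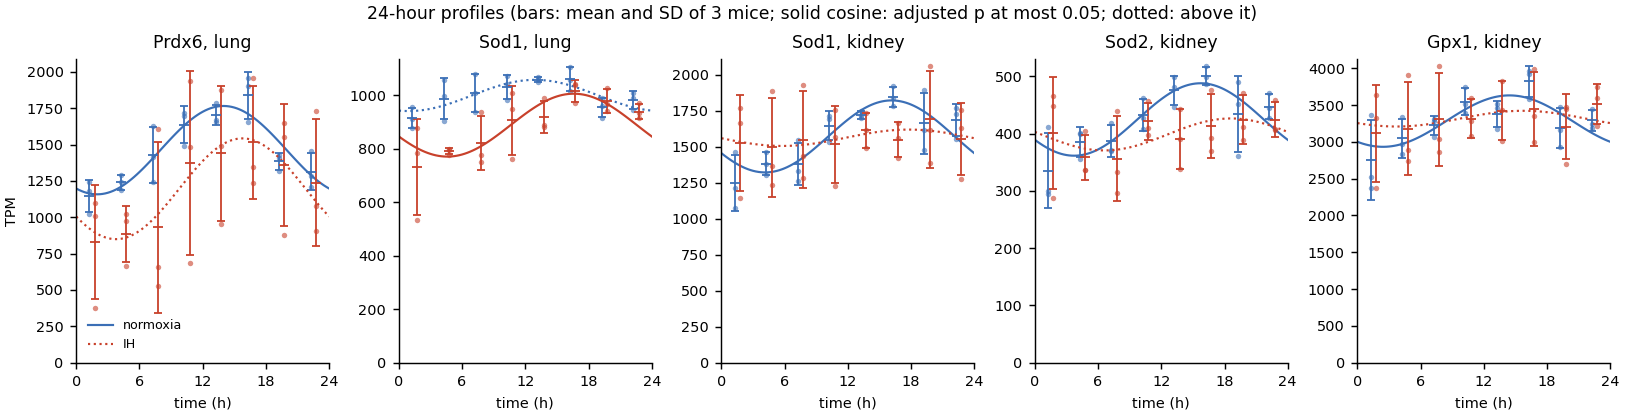
TPM (vertical axes from 0) against time of collection in hours for the 5 gene and tissue pairs with a called rhythm, with each library as a point, the mean and SD of 3 mice as bars, and cosine curves that are solid where the adjusted p was at or below 0.05. Prdx6 in the normoxic lung peaks at 13.98 h, and the kidney curves for Sod1 and Sod2 in normoxia peak at 16.1 h and 15.7 h, while the IH curves of the kidney are dotted.

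In the normoxic kidney Sod1 and Sod2 kept similar time. Sod1 went from 1249 ± 197 TPM at 1:30 h to 1847 ± 70.8 TPM at 16:30 h, with an amplitude of 15.9% of MESOR and the acrophase at 16.1 h (adjusted p = 0.00364). Sod2 went from 336 ± 66.1 TPM to 501 ± 15.5 TPM at the same times, with an amplitude of 14.9% of MESOR and the acrophase at 15.7 h (adjusted p = 0.00969). Gpx1 had an amplitude of 10.6% of MESOR and an acrophase at 14.4 h (adjusted p = 0.0371). The pseudogene Gm19220 took a mean of 223984 TPM in the kidney at 1:30 h in normoxia and 24696 to 103348 TPM at the other times, so the early trough of these curves falls where this transcript was highest. With TPM rescaled without it the amplitudes became 10.2% for Sod1 (adjusted p = 0.0109) and 8.95% for Sod2 (adjusted p = 0.0257), still called, and Gpx1 was no longer called (adjusted p = 0.295).

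Whether the curves differed between treatments was tested directly in each tissue. None of the 10 members had an adjusted p at or below 0.05 in any tissue by the nested cosine fit, where 0.000984% of all tests passed, and 2 of the 60 pairs of gene and tissue had an unadjusted p under 0.05, Sod1 in the lung (0.0085) and Prdx5 in the heart (0.0398). A rhythm called in one treatment and not in the other, such as that of Sod1 or Sod2 in the kidney, was therefore not shown to differ between them.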

How the data were processed

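The authors pseudoaligned reads of poly(A) libraries to the mouse transcriptome with kallisto (build mm10, per the labels) and deposited TPM per gene in 12 tables. The estimated counts on which they ran DESeq2 were not used here, so the depth of each library is not recorded here and no count test was made. Columns were matched to samples by the table's tissue and treatment and by the time point and replicate in the column name, since column names repeat between tables.

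The members and gene lists were chosen with earlier results of these data known. Treatment was compared with limma 3.58.1 in R 4.3.3 on log2(scaled TPM + 0.5), for genes averaging 1 TPM or more, with an intensity trend and treatment as the only term. Size factors were medians of ratios within a tissue. Tissue order in normoxia used TPM as deposited, and the interaction used all 6 tissues. Tests were 2-sided and adjusted by the Benjamini-Hochberg method over all genes. What a replicate number stands for is not given in the labels. Rhythm was tested by cosine fit in Python 3.11.15 with numpy 2.4.6 and scipy 1.17.1, for genes reaching 1 TPM in some library. Methods were tested on simulated data. The genes named are the 10 members, the 2 largest rises and 2 largest falls per tissue among the listed pathway genes past 1.5-fold averaging 5 TPM or more, and the 3 genes most like each member. Positions are from GENCODE mouse release 21 and RefSeq upstream windows.

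Alternatives were TPM as deposited, other pseudocounts and filters, terms for time point, replicate number and genes detected, length and GC correction, and leaving out libraries. Those that concern Gm19220, the within-number comparisons and the lung library were chosen after seeing the data. Same-numbered libraries of the 2 treatments at a time point were not taken as pairs. In no tissue did the deviations of every such pair correlate above 0.1. Real pairs could miss that bar too, so it does not show that pairing was absent.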

Additional observations from a re-analysis of the deposited data

Results flagged for a closer look

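The IH effect differed between the 6 tissues for all 10 members by the interaction of treatment and tissue (limma adjusted p over all genes). The adjusted p was 1.09e-04 for Sod1, 0.00321 for Sod2, 4.97e-09 for Sod3, 2.83e-05 for Gpx1, 4.44e-19 for Gpx3, 9.04e-06 for Gpx4, 3.24e-11 for Prdx1, 1.4e-09 for Prdx3, 4.7e-06 for Prdx5 and 5.39e-08 for Prdx6. The labels do not tie libraries to mice across tissues, so the test took them as independent, and 88.3% of all genes passed it.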

How the results depend on the processing

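Of 18 called changes, 7 kept direction and call under every alternative other than the comparisons within 1 replicate number: Sod1, Gpx1, Prdx1, Prdx3 and Prdx5 in the lung, Gpx3 in the liver and Prdx1 in the heart. Within single numbers the 5 lung genes were called in all 3, while Gpx3 in the liver was not called in number 3, nor Prdx1 in the heart in numbers 1 and 3. Within number 3 only 1 of 11468 liver genes was called. With TPM as deposited the members called were 6 in the lung and 2 in the liver, and with TPM rescaled without Gm19220 6 in the lung. With the number of detected genes as a term they were 3 in the kidney, 1 in the heart and 0 for cerebellum. Among all genes that term called 3107 of 12902 in the kidney, 257 of 12779 in the heart and 1498 of 14892 in the cerebellum. The cerebellum also had 0 without a filter on low values and 0 without libraries holding over 100000 TPM of Gm19220. The liver had 3 without such libraries, as it did without the IH library of replicate 2 at 13:30 h. Length and GC correction gave 9 in the lung, 2 in the kidney and 6 for heart. Leaving out each replicate number in turn gave 8 to 9 in the lung, 1 to 2 in the liver, 1 to 2 in the kidney, 2 to 4 for heart and 0 to 2 for cerebellum. Among all cerebellum genes, leaving out numbers 1, 2 and 3 gave 175 of 14592, 48 of 14959 and 5289 of 15084 calls. Signs reversed for Gpx3 in the lung with TPM as deposited (0.070) and rescaled without Gm19220 (0.067), and with the detected-gene term for Gpx3 (0.32), Prdx6 (0.21), Sod2 (0.13) and Sod3 (0.68) in the lung and Gpx4 in the heart (0.033). The cause was not tested.

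With a replicate block, members called in each tissue were 10, 1, 1, 0, 5 and 1 for lung, liver, kidney, muscle, heart and cerebellum, the interaction count was 10 and the tissue steps 42. Of the 24 same-numbered pairs of IH and normoxia libraries in a tissue, 4 to 16 had deviations correlated above 0.1. Averaged over time points, the deviations of numbers 1, 2 and 3 correlated at 0.156, 0.376 and 0.651 in the muscle and at 0.668, -0.0666 and 0.486 in the liver, so sharing by number was seen in part there, and the block left the counts in both as they were. Rhythmic members with the replicate block were 5 in the lung and 1 in the liver. On log2 scaled TPM they were 1 in the lung and 1 in the muscle, and the rank test gave 1 in the liver. Leaving out each replicate number gave 1 in the lung and 0 to 4 in the kidney. The depth of each library is not recorded in the tables, so low values carry an unknown counting error.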
